A study of Mus musculus with 50 samples.

Results

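The BAF chromatin remodeller subunit switch was followed through 10 genes that encode exchangeable subunits of the BAF (mammalian SWI/SNF) complex: *Actl6a*, *Actl6b*, *Ss18*, *Ss18l1*, *Dpf1*, *Dpf2*, *Dpf3*, *Phf10*, *Smarca2* and *Smarca4*. The genes were taken from a list of progenitor and neuronal subunits, and Ensembl identifiers were matched to symbols by GENCODE vM21. They are 10 of the 55487 annotated genes in the count files, and all 10 were among the 16330 protein-coding genes with enough counts to be tested.

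Poly-A RNA from mouse frontal cortex was sequenced in 50 libraries, each from 1 mouse, with 5 wild-type (WT) and 5 *Setd1a*+/- (Het) mice at each of 5 ages: E14, E18, P7, P35 and P70. The strain is labelled C57BL/6NTac; the methods of the study describe a mixed background of C57BL/6NTac and C57BL/6J, a heterozygous tm1d loss-of-function allele of *Setd1a*, and males bred from Het males and WT females. Frontal brain regions were taken from embryos and frontal cortex from postnatal littermates. The tissue was homogenised whole, in a reagent made for synaptic protein extraction, so every library mixes all cell types of the dissection. Total counts per library ran from 35507165 to 43907318, with a median of 38626998.5.

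BAF complexes use the energy of ATP to move nucleosomes, and most of their subunits are built from small gene families whose members compete for the same place in the complex. When a neural progenitor leaves the cell cycle, the complex exchanges several of its subunits: ACTL6A gives way to ACTL6B, SS18 to SS18L1 (also called CREST), and PHF10 or DPF2 to DPF1 or DPF3. The repressor REST and the microRNAs miR-9-3p (also written miR-9*) and miR-124 are known parts of the circuit that sets the ACTL6 exchange.

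Levels are given as RPKM, fragment counts divided by library size (scaled by TMM) and by the exon bases of the gene, which allows genes of different length to be compared. Fold changes were tested with edgeR's quasi-likelihood F-test over all 16330 genes, and a gene passed when its Benjamini-Hochberg adjusted p was under 0.05.

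*Setd1a* was read first. At E14 it lay between 17.5 and 20.1 RPKM in the 5 WT libraries and between 18.8 and 22.1 in the 5 Het libraries. The WT and Het ranges were 12.6 to 14.7 and 14.3 to 17.2 at E18, 10.3 to 11.2 and 11.2 to 12.3 at P7. They were 12 to 13.5 and 13 to 13.5 at P35, with 12 to 13.5 and 11.3 to 14.4 for P70. The Het median was above the WT median up to P35 and below it at P70, and over all ages *Setd1a* was higher in Het by a log2 fold change of 0.10 ± 0.025 (SE; adjusted p 0.00679). The gene-level count does not isolate the deleted part of the gene, and 52.3% of its exon bases are shared with *Gm49388* and *9430064I24Rik*, so it does not check the genotypes, which rest on the labels.

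Cortical identity was checked with 8 cortex markers, all of them detected. Their summed level ran from 627 to 807 RPKM at E14, from 412 to 775 in E18 libraries, from 156 to 315 in P7, from 172 to 203.99 in P35 and from 171 to 210 in P70 libraries; the lowest value of all was that of P7 WT replicate 2. Hox and other hindbrain markers summed to at most 0.233 RPKM in every library but 1.

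Some libraries stood apart. E14 WT replicate 5 held 60159 *Xist* counts and 0 counts of each of 4 Y-linked genes, and E18 WT replicate 2 held 55644 *Xist* counts and at most 4 counts of any of these Y-linked genes, while the other 48 libraries held 1 to 27 *Xist* counts. In these 2 libraries the counts differ from the male sex stated for the animals, and a female animal and an exchanged sample cannot be told apart from them. P7 WT replicate 2 had a median correlation of 0.969 with the other P7 libraries across genes, against 0.991 to 0.993 for the other 9. Its summed level of hindbrain and Hox markers was 5.92 RPKM, where the other P7 libraries reached at most 0.186, and its choroid plexus markers summed to 514 RPKM, where the others reached at most 1.15. RNA integrity numbers in the study's table were lower in Het than in WT libraries at E18. Where a call for one of the 10 genes changed without E14 WT replicate 5 or P7 WT replicate 2, both values are given, and the P7 ratios are given both ways.

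Other embryonic libraries differed in marker content. E14 Het replicate 2 had the lowest median correlation of its age (0.976, the next 0.984) and an endothelial and pericyte marker sum of 241 RPKM, where the other E14 libraries reached at most 79.7. Choroid plexus sums ran from 2.72 to 389 RPKM at E14, and at E18 they reached 191.8 in WT but at most 2.80 in Het libraries. Endothelial and pericyte sums at E18 ran from 62.9 to 159.03 RPKM in WT (mean 101.9) and from 49.9 to 65.3 in Het libraries (mean 58.4). With any single library other than E14 WT replicate 5 left out, 0 of the 10 genes passed for genotype at E14, and at E18 leaving out any single library also gave 0. The part of these contents in the embryonic genotype comparisons was not tested.

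**Figure D1:**
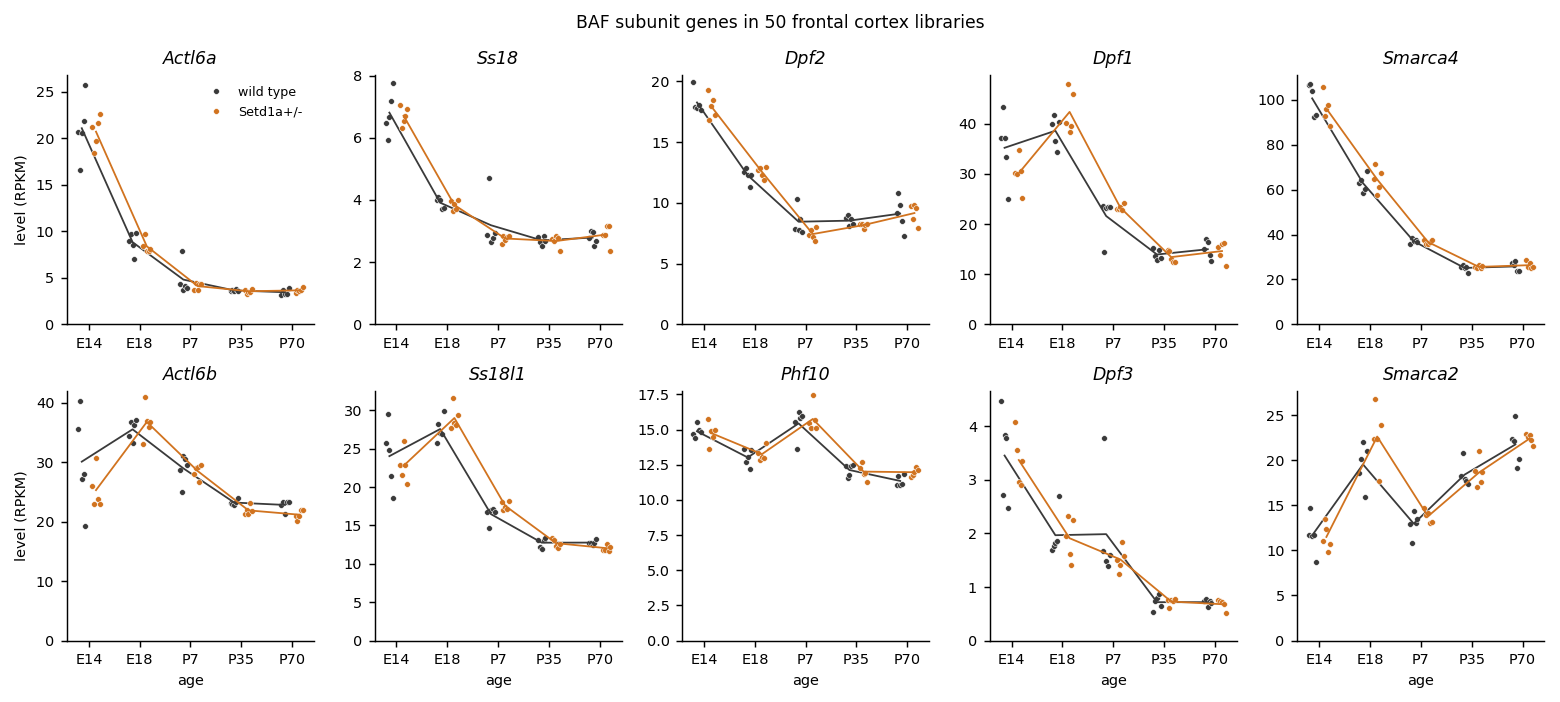
Level in RPKM (vertical axis, from 0) of each of the 10 genes against age in 50 libraries; each dot is 1 library, dark for wild type and orange for *Setd1a*+/-, and lines join the genotype means. *Actl6a*, *Ss18* and *Smarca4* fall steeply from E14, and the lone wild-type dot at P7, seen best in *Actl6a*, *Ss18*, *Dpf1* and *Dpf3*, is replicate 2.

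*Actl6a* encodes the progenitor form of the actin-related subunit (ENSMUSG00000027671, chromosome 3, 32706298 to 32726973, GRCm38). Of its exon bases 11.6% are shared with *Mrpl47*, and fragments there were counted for both genes. Its level in the 10 libraries of an age ran from 16.6 to 25.7 RPKM at E14 (median 21), from 7.06 to 9.86 at E18 (median 8.49), from 3.71 to 7.93 at P7 (median 4.23), from 3.25 to 3.83 at P35 (median 3.58), and last from 3.15 to 3.99 at P70 (median 3.62). Every E14 library lay above every library of the later ages, and the highest P7 value belonged to WT replicate 2. Between E14 and P70 *Actl6a* fell by 2.56 ± 0.090 on the log2 scale (5.88-fold lower; adjusted p 5.79e-29), the largest fall among the 10 genes.

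The fall of *Actl6a* was stepwise. It fell by 1.28 ± 0.085 on the log2 scale from E14 to E18 (adjusted p 1.41e-17) and by 0.95 ± 0.087 from E18 to P7 (adjusted p 1.96e-13). From P7 to P35 it fell by 0.31 ± 0.088 (adjusted p 0.00188), or by 0.18 without P7 WT replicate 2 (adjusted p 0.0117). From P35 to P70 the log2 change was -0.02 ± 0.089 and did not pass the test (adjusted p 0.936). In bulk tissue, fewer cells that express a gene and less RNA per cell cannot be told apart, here and for every age change below.

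*Actl6b* encodes the neuronal form (ENSMUSG00000029712, chromosome 5, 137553517 to 137569582). Its level ran from 19.3 to 40.2 RPKM at E14 (median 26.6), from 33.1 to 40.9 at E18 (median 36.5), from 24.9 to 31.0 at P7 (median 29.2), from 21.2 to 23.9 at P35 (median 22.8), and last from 20.1 to 23.4 at P70 (median 21.9). The E14 values were the most scattered and overlapped with those of all 4 later ages, while every E18 library lay above every postnatal one. *Actl6b* rose from E14 to E18 by 0.39 ± 0.067 on the log2 scale (adjusted p 1.61e-06) and then fell by 0.33 ± 0.067 from E18 to P7 (adjusted p 2.40e-05) and by 0.35 ± 0.067 from P7 to P35 (adjusted p 9.94e-06). The neuronal form was therefore already abundant at E14, and at P70 it was lower than at E14 by a log2 change of -0.33 ± 0.067 (adjusted p 1.94e-05).

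The exchange between both forms was read as a ratio within each library, which needs no scaling between libraries. The log2 ratio of *Actl6b* to *Actl6a* in RPKM averaged 0.38 ± 0.46 (SD, n = 10) at E14 and 2.07 ± 0.16 at E18, then 2.72 ± 0.40 at P7 and 2.65 ± 0.090 at P35, ending with 2.63 ± 0.14 at P70. Without P7 WT replicate 2 (1.65) the P7 mean was 2.84 ± 0.14 (n = 9), further above the P35 and P70 means. *Actl6b* made up a median of 55.9% of the summed RPKM of the pair at E14, 80.3% at E18 and 87.6% at P7. The turn toward the neuronal form thus came from the fall of *Actl6a* more than from a rise of *Actl6b*, and the summed level of the pair declined from a median of 47.5 RPKM at E14 to 25.8 at P70. At E14 the ratio ran from -0.41 in WT replicate 5 to 1.28 in WT replicate 2, so 1 library had more *Actl6a* than *Actl6b*. With the length of the longest transcript in place of all exon bases, the mean E14 ratio was -0.11 and its sign turned, so which form was higher at E14 depends on the length used, while its change with age does not.

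The promoters of this pair are shown because its members moved in opposite directions from E14 to E18, and the 3′ end of *Actl6a* because it carries a match to a microRNA of the known circuit. RefSeq promoter sequences (GRCm38.p6, 250 bases before to 50 after the start) were found for 9 of the 10 genes. Capitals mark matches on either strand to the GC box, searched as GGGCGG, to the CCAAT box, and to both parts of the REST element. These parts were searched as TCAGCACC for one side and, for the other side of the element, as GGACAGC, letters that were chosen after the sequence had been seen. *Actl6a* lies at chr3:32708296-32708595 and *Actl6b* at chr5:137553296-137553595, both on the plus strand. The *Actl6a* stretch lies inside the gene as annotated for the counts, which begins at 32706298, and the *Actl6b* stretch spans the annotated beginning of its gene at 137553517.
Actl6a promoter: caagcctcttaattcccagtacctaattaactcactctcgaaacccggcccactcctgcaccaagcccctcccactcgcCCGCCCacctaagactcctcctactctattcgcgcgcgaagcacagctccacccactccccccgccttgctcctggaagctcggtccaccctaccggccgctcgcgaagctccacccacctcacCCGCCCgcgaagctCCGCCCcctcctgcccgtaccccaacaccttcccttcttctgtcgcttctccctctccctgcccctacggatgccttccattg
Actl6b promoter: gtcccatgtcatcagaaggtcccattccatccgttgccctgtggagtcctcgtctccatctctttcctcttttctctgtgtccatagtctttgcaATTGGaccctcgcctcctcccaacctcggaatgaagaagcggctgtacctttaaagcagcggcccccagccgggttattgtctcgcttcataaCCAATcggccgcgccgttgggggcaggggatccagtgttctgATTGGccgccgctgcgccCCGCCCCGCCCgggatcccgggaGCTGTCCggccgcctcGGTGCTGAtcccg
In *Actl6b* GGACAGC began 21 bases after the start, and 9 bases lay between its end and TCAGCACC. Since GGACAGC was chosen on this sequence, its presence there and the presence of both parts are no test of a REST element. Such a match describes the sequence and does not show binding.

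The miR-9-3p sequence is the same at its 3 loci, *Mir9-1* (chromosome 3), *Mir9-2* (chromosome 13) and *Mir9-3* (chromosome 7). Its seed, bases 2 to 8, is in capitals, and so are the matching 7 bases of the 3′ untranslated region of *Actl6a*. The whole stretch shown, 28 bases, lies at chr3:32726625-32726652 on the plus strand of GRCm38.
miR-9-3p: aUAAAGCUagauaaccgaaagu
Actl6a site: cacctcaacgtctgtAGCTTTAgtacac
The match begins at base 38 of a region of 371 bases. Among the 10 genes, *Actl6a* and *Smarca2* held AGCTTTA in this region of their annotated transcript, against 11.28% of 21028 genes. Only the site of miR-9-3p was counted, and no site of miR-124 is given. These libraries do not measure mature microRNAs.

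The 3 genes most like *Actl6a* in log2 CPM over the 50 libraries were *Wdhd1* (Pearson r 0.994), *Baz2b* (r 0.992) and *Rpa2* (r 0.991). For *Actl6b* they were *Pdzd4* (r 0.951), *Nsg2* (r 0.938) and *B4galnt4* (r 0.934). The 50 points share 5 ages; after the mean of each age was removed, r was 0.855, 0.755 and 0.736 for the genes like *Actl6a* and 0.834, 0.787 and 0.815 for those like *Actl6b*. Which genes were nearest depended on the measure, here and for the genes below: by Spearman rank 0 of the same 3 were named again for *Actl6a*, *Ss18* and *Smarca4*, 2 for *Phf10* and 1 for each of the other 6, and in WT libraries alone 0 to 3 were.

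*Ss18* encodes the progenitor form of a subunit that joins the complex through its amino-terminal part (ENSMUSG00000037013, chromosome 18, 14624198 to 14682914). Its level ran from 5.94 to 7.77 RPKM at E14 (median 6.7), from 3.63 to 4.11 at E18 (median 3.93), from 2.59 to 4.71 at P7 (median 2.82), from 2.36 to 2.85 at P35 (median 2.71), and last from 2.37 to 3.18 at P70 (median 2.87). All E14 libraries lay above all others, and the highest P7 value was again that of WT replicate 2. *Ss18* fell by 0.80 ± 0.064 on the log2 scale from E14 to E18 (adjusted p 4.65e-15) and by 0.38 ± 0.065 from E18 to P7 (adjusted p 8.98e-07). The later step was small: from P7 to P35 the log2 change was -0.14 ± 0.065 (adjusted p 0.0459), and without P7 WT replicate 2 it was -0.05 (adjusted p 0.335), with the call also lost when any 1 of 12 other libraries was left out.

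*Ss18l1* encodes the neuronal form, CREST, which is known for calcium-dependent growth of dendrites (ENSMUSG00000039086, chromosome 2, 180042509 to 180070201). RPKM values ran from 18.6 to 29.5 RPKM at E14 (median 22.9), from 25.7 to 31.6 at E18 (median 28.2), from 14.7 to 18.2 at P7 (median 17.1), from 11.9 to 13.4 at P35 (median 12.8), and last from 11.7 to 13.2 at P70 (median 12.5). E14 and E18 overlapped, and every embryonic library lay above every postnatal one. *Ss18l1* rose by 0.27 ± 0.048 on the log2 scale from E14 to E18 (adjusted p 2.09e-06), fell by 0.73 ± 0.048 from E18 to P7 (adjusted p 4.74e-18) and fell by 0.42 ± 0.048 from P7 to P35 (adjusted p 1.52e-10).

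Over the whole span *Ss18* fell by 1.25 ± 0.065 on the log2 scale (adjusted p 1.95e-22) and *Ss18l1* by 0.92 ± 0.048 (adjusted p 3.55e-22). The log2 ratio of *Ss18l1* to *Ss18* in RPKM averaged 1.78 ± 0.29 (SD, n = 10) at E14 and 2.87 ± 0.12 at E18, then 2.54 ± 0.33 at P7 and 2.24 ± 0.087 at P35, ending with 2.13 ± 0.16 at P70. Without P7 WT replicate 2 the P7 mean was 2.64 ± 0.088 (n = 9). With or without that library the mean was highest at E18 for this pair and at P7 for the ACTL6 pair, and the difference between both ratios was not tested. With longest-transcript lengths the mean was 0.49 at E14 and 0.83 at P70. The genes most like *Ss18* were *Incenp* (r 0.980), *Baz1a* (r 0.980) and *Zfp219* (r 0.979), and those most like *Ss18l1* were *Fam117b* (r 0.989), *Runx1t1* (r 0.988) and *St8sia4* (r 0.983), over the same 50 libraries and their shared ages. With age means removed these r were 0.675, 0.799 and 0.714 for *Ss18* and 0.846, 0.783 and 0.603 for *Ss18l1*.

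**Figure D2:**
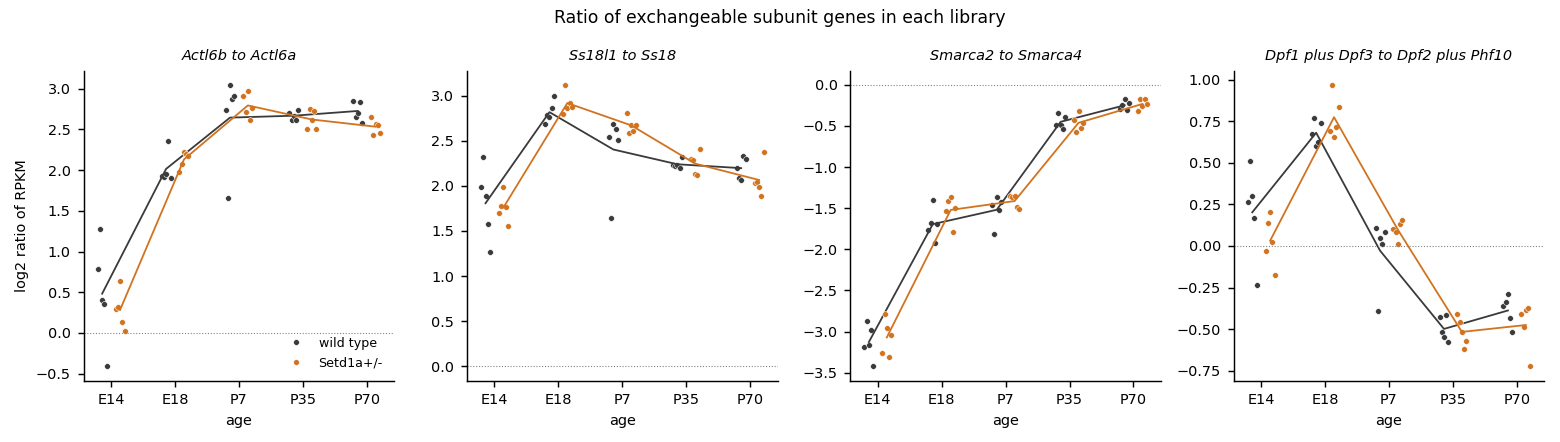
Log2 ratio of RPKM (vertical axis) against age for the 4 sets of exchangeable subunits; each dot is 1 library, dark for wild type and orange for *Setd1a*+/-, and lines join the genotype means. By its mean over the 10 libraries of an age the ACTL6 ratio is highest at P7 and the SS18 ratio at E18. The wild-type mean of the ACTL6 ratio is highest at P70 (2.73, against 2.65 at P7 with replicate 2 included). The mean of the SMARCA ratio goes from -3.10 at E14 to -0.24 at P70.

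The DPF and PHF10 proteins read histone tails through paired PHD fingers. *Dpf2* is the broadly expressed member (ENSMUSG00000024826, chromosome 19, 5896516 to 5913010). Levels ran from 16.8 to 19.9 RPKM at E14 (median 17.9), from 11.3 to 13 at E18 (median 12.4), from 6.82 to 10.3 at P7 (median 7.76), from 7.85 to 8.96 at P35 (median 8.27), and last from 7.24 to 10.8 at P70 (median 9.39). Both embryonic ages lay above all postnatal libraries without overlap, and the 3 postnatal ages overlapped. *Dpf2* fell by 0.55 ± 0.050 on the log2 scale from E14 to E18 (adjusted p 3.03e-13) and by 0.65 ± 0.051 from E18 to P7 (adjusted p 1.54e-15). Its later changes depended on single libraries: the log2 change from P7 to P35 was 0.08 ± 0.051 (adjusted p 0.171) and 0.12 without P7 WT replicate 2 (adjusted p 0.0226). From P35 to P70 it was 0.13 ± 0.051 (adjusted p 0.0941), 0.17 without P70 WT replicate 5 (adjusted p 0.0138) and 0.15 without P70 Het replicate 5 (adjusted p 0.0364). With library size as the only scaling, the P7 to P35 change of *Dpf2* was -0.01.

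*Phf10* is the progenitor member, a subunit of the PBAF form of the complex (ENSMUSG00000023883, chromosome 17, 14945009 to 14961273). Its level ran from 13.6 to 15.8 RPKM at E14 (median 14.9), from 12.2 to 14.1 at E18 (median 13), from 13.6 to 17.4 at P7 (median 15.6), from 11.3 to 12.7 at P35 (median 12.1), and last from 11.1 to 12.3 at P70 (median 11.7). The ranges of the first 3 ages overlapped, and as a fold between its highest and lowest library its span over all ages was the narrowest of the 10 genes. *Phf10* was the only 1 of the 10 genes to rise from E18 to P7, by 0.25 ± 0.031 on the log2 scale (adjusted p 1.01e-09), between a fall of 0.17 ± 0.031 from E14 to E18 (log2 change -0.17; adjusted p 2.54e-06) and one from P7 to P35 (log2 change -0.37 ± 0.031; adjusted p 9.51e-15). Of its exon bases, 9.57% are shared with *1600012H06Rik*, and fragments there were counted for both genes.

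*Dpf1* is the more abundant neuronal gene of this family (ENSMUSG00000030584, chromosome 7, 29303951 to 29318243). Its level ran from 25.1 to 43.4 RPKM at E14 (median 31.9), from 34.4 to 48.0 at E18 (median 40), from 14.5 to 24.2 at P7 (median 23.3), from 12.3 to 15.2 at P35 (median 13.4), and last from 11.6 to 17 at P70 (median 15.2). Every embryonic library lay above every postnatal one. *Dpf1* rose by 0.31 ± 0.079 on the log2 scale from E14 to E18 (adjusted p 0.000467) and fell by 0.85 ± 0.079 from E18 to P7 (adjusted p 3.42e-13) and by 0.71 ± 0.080 from P7 to P35 (adjusted p 5.95e-11). The rise passed the test in Het libraries alone (log2 change 0.49 ± 0.11; adjusted p 0.000165) and not in WT libraries alone (0.13 ± 0.11; adjusted p 0.292). The WT value includes E14 replicate 5, the lowest E14 library at 25.1 RPKM, where the E14 WT median was 37.1. A low library at the starting age makes the WT rise larger, not smaller. In the edgeR test of an age by genotype interaction 0 genes passed (1098 at an unadjusted p under 0.05), and *Dpf1* had a p of 0.173 (adjusted p 0.934). By limma-voom 0 genes passed and by DESeq2 21, none of them among the 10.

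*Dpf3* is the other neuronal member and the least abundant of the 10 genes (ENSMUSG00000021221, chromosome 12, 83213745 to 83487716). Values per library ran from 2.47 to 4.47 RPKM at E14 (median 3.46), from 1.42 to 2.70 at E18 (median 1.84), from 1.25 to 3.78 at P7 (median 1.54), from 0.538 to 0.873 at P35 (median 0.746), and last from 0.507 to 0.776 at P70 (median 0.726). It was highest at E14 although it is counted among the neuronal forms. *Dpf3* fell by 0.82 ± 0.13 on the log2 scale from E14 to E18 (adjusted p 5.18e-07) and by 1.26 ± 0.14 from P7 to P35 (adjusted p 4.65e-11), and by 2.29 ± 0.14 from E14 to P70 (adjusted p 1.13e-19). From E18 to P7 its log2 change was -0.16 ± 0.13 (adjusted p 0.277) with all libraries and -0.35 without P7 WT replicate 2 (adjusted p 0.00328).

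The family as a whole did not turn one way. The log2 ratio of *Dpf1* plus *Dpf3* to *Dpf2* plus *Phf10* in RPKM averaged 0.12 ± 0.23 (SD, n = 10) at E14 and 0.73 ± 0.11 at E18, then 0.03 ± 0.16 at P7 and -0.51 ± 0.075 at P35, ending with -0.43 ± 0.12 at P70. Without P7 WT replicate 2 the P7 mean was 0.08 ± 0.050 (n = 9). With longest-transcript lengths the P7 ratios outside that library ran from 0.16 to 0.31, against 0.01 to 0.15 with merged exon length. Whether the P7 mean lay above or below the E14 mean therefore depends on the length used. The neuronal pair made up a median of 62.0% of the family's summed RPKM at E18 and 41.1% at P35, and *Dpf1* supplied most of that share. *Phf10* alone made up a median of 19.7% at E18 and 34.8% at P35.

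The genes most like *Dpf2* over the 50 libraries were *Phf21b* (r 0.986), *Gins2* (r 0.981) and *C2cd3* (r 0.981), and those most like *Phf10* were *Tuba1b* (r 0.918), *Tysnd1* (r 0.914) and *Larp4b* (r 0.911). For *Dpf3* they were *Tedc1* (r 0.962), *Sephs1* (r 0.959) and *Cdt1* (r 0.958). For *Dpf1* they were *Rbfox2* (r 0.978), *Ss18l1* (r 0.977) and *Irf2bpl* (r 0.972). With the mean of each age removed, r was 0.794, 0.705 and 0.644 for the genes like *Dpf2*, 0.232, 0.378 and 0.515 for *Phf10*, 0.466, 0.528 and 0.648 for *Dpf3*, and 0.817, 0.722 and 0.781 for *Dpf1*. *Ss18l1* was not among the 3 nearest to *Dpf1* by Spearman rank or in WT libraries alone, and the r of *Dpf3* with *Ss18l1* was 0.794 over all libraries and -0.087 with age means removed.

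*Smarca4* encodes BRG1, one of the alternative ATPases that drive the complex (ENSMUSG00000032187, chromosome 9, 21616169 to 21704230). Libraries ran from 88.2 to 107 RPKM at E14 (median 96.9), from 57.6 to 71.5 at E18 (median 63.8), from 35.6 to 38.4 at P7 (median 36.9), from 22.8 to 26.5 at P35 (median 25.6), and last from 23.6 to 28.7 at P70 (median 25.9). On merged exon length its median was the highest of the 10 genes at every age, but this rank depends on the length used. With longest-transcript lengths its median was the highest at E14 only: *Dpf1* lay above it in 8 of 10 libraries at E18, *Actl6b* in 8 and *Dpf1* in 9 of 10 at P7, *Smarca2* and *Actl6b* in all 10 at P35, and *Smarca2* in all 10 and *Actl6b* in 9 at P70. Its libraries separated without overlap by age up to P35. *Smarca4* fell by 0.63 ± 0.039 on the log2 scale from E14 to E18 (adjusted p 1.46e-18), by 0.79 ± 0.039 from E18 to P7 (adjusted p 2.46e-22) and by 0.54 ± 0.039 from P7 to P35 (adjusted p 1.03e-16). Over the whole span it fell by 1.91 ± 0.040 (3.77-fold lower; adjusted p 1.07e-37), and from P35 to P70 its log2 change was 0.04 ± 0.039 (adjusted p 0.585).

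*Smarca2* encodes BRM, the alternative ATPase (ENSMUSG00000024921, chromosome 19, 26605050 to 26778322). Its level ran from 8.69 to 14.7 RPKM at E14 (median 11.6), from 15.9 to 26.8 at E18 (median 21.6), from 10.9 to 14.7 at P7 (median 13.3), from 17 to 21 at P35 (median 18.1), and last from 19.1 to 24.9 at P70 (median 22.3). The course had a trough at P7, where every library lay below every E18, P35 and P70 library. *Smarca2* rose by 0.86 ± 0.070 on the log2 scale from E14 to E18 (adjusted p 8.88e-15), fell by 0.65 ± 0.070 from E18 to P7 (adjusted p 2.15e-11), rose by 0.47 ± 0.070 from P7 to P35 (adjusted p 7.55e-08) and rose by 0.25 ± 0.070 from P35 to P70 (adjusted p 0.0143). It was the only 1 of the 10 genes to end higher than it began, by 0.93 ± 0.070 (1.91-fold; adjusted p 1.52e-16).

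The log2 ratio of *Smarca2* to *Smarca4* in RPKM averaged -3.10 ± 0.20 (SD, n = 10) at E14 and -1.61 ± 0.19 at E18, then -1.47 ± 0.14 at P7 and -0.46 ± 0.081 at P35, ending with -0.24 ± 0.057 at P70. Without P7 WT replicate 2 the P7 mean was -1.43 ± 0.071 (n = 9). In the share of both genes' summed RPKM, *Smarca2* went from a median of 10.5% at E14 to 45.8% at P70. This was the largest shift among the 4 ratios, 2.86 on the log2 scale between the E14 and P70 means, against 2.25 for the ACTL6 pair. The *Smarca2* annotation counts 14269 exon bases, many more than its longest transcript of 5921 bases, and with longest-transcript lengths the mean ratio was -1.85 at E14 and 1.00 at P70, so which ATPase gene was higher at P70 depends on the length used.

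The ATPase promoters are shown because both genes changed in opposite directions from E14 to E18 and from P7 to P35. *Smarca4* lies at chr9:21615919-21616218 and *Smarca2* at chr19:26604910-26605209, both on the plus strand of GRCm38.p6 and from RefSeq. Capitals mark GC boxes and, in *Smarca2*, an ETS site (CCGGAAG, searched on both strands).
Smarca4 promoter: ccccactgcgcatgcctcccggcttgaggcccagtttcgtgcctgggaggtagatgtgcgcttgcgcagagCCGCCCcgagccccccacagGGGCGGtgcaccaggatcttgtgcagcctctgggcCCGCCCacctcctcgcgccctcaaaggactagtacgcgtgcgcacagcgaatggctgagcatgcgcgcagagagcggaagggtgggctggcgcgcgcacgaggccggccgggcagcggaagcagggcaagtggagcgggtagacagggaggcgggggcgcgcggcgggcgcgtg
Smarca2 promoter: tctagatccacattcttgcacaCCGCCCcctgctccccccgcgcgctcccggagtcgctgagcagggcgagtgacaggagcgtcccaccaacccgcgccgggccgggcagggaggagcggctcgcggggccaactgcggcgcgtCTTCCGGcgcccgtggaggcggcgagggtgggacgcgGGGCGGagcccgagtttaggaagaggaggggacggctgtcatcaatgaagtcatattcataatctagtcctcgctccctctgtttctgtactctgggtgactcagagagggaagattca
Over the 9 promoters, GC boxes were found in 8 (35.66% of all promoters), CCAAT boxes in 4 (37.41%) and the ETS site in 1 (8.86%). The letters TGACGTCA, TTTCCCGC and TTTGGCGC were in 0 of the 9 windows, against 1.79%, 1.07% and 0.51% of all promoters. GC content ran from 55.33% in *Dpf3* to 87.0% in *Phf10* with a median of 65.67%, against 52.67% over all promoters, and the observed to expected CpG ratio had a median of 0.8995 against 0.3836.

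The genes most like *Smarca4* over the 50 libraries were *Zfp462* (r 0.994), *Ddx39b* (r 0.994) and *Caprin1* (r 0.994). Those most like *Smarca2* were less close: *Zbtb38* (r 0.913), *Prr18* (r 0.872) and *Kcnj2* (r 0.870). After removal of age means r was 0.497, 0.504 and 0.604 for the genes like *Smarca4* and 0.528, 0.332 and 0.457 for those like *Smarca2*.

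**Figure D3:**
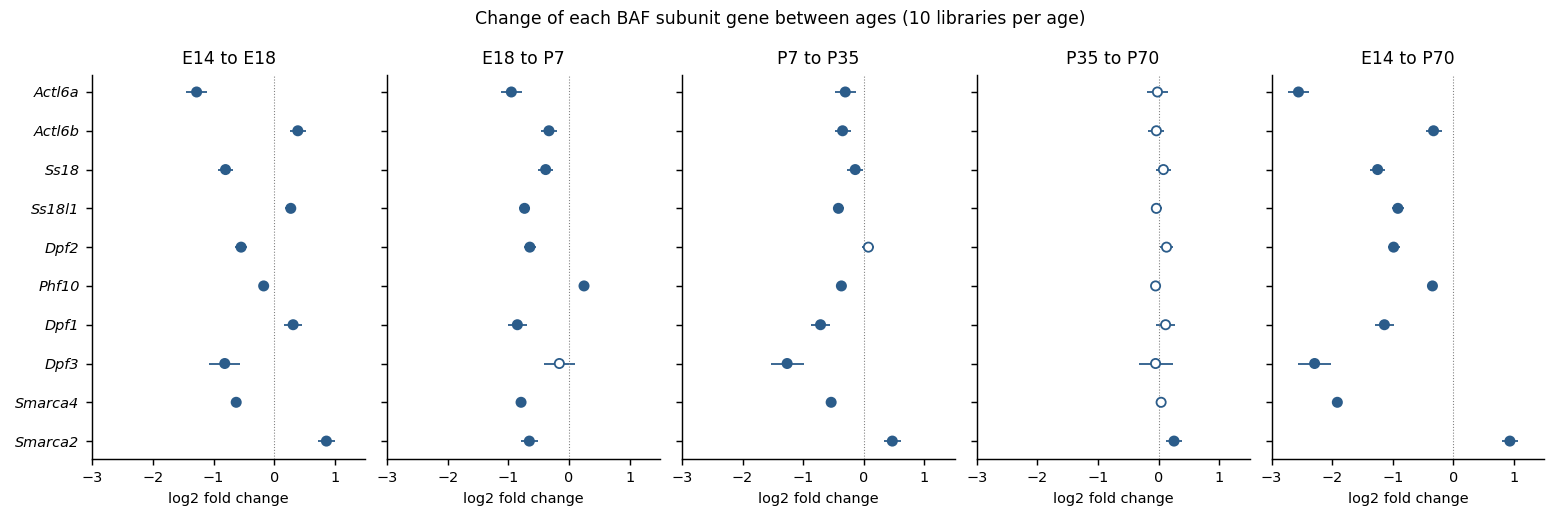
Log2 fold change of each of the 10 genes (horizontal axis) between consecutive ages and from E14 to P70, with 95% intervals from 10 libraries per age; filled dots passed the test at an adjusted p under 0.05 and open dots did not. From E14 to P70 *Smarca2* lies to the right of 0 and the other 9 genes lie to the left.

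Counted together, 10 of 10 genes passed from E14 to P70, 1 higher and 9 lower, where 89.8% of all tested genes passed, 44.7% higher and 45.1% lower; the share passing is near that background, and the balance toward lower levels was not tested as a set. Their median log2 change was -1.06, against -0.003 over all tested genes. From E14 to E18 10 of 10 passed (background 73.4%), with *Actl6b*, *Dpf1*, *Ss18l1* and *Smarca2* higher (4 genes; background 36%) and 6 lower (background 37.4%). The 4 that rose are the ones listed as neuronal or alternative forms, *Dpf3* being the exception among these. From E18 to P7 9 of 10 passed (background 76.1%), with *Phf10* alone higher (background 37.9%) and 8 lower (background 38.2%), and from P7 to P35 9 of 10 passed (background 76.1%), with *Smarca2* alone higher (background 38%) and 8 lower (background 38.1%). From P35 to P70 only *Smarca2* passed (1 of 10, background 9.74%, 5% higher and 4.75% lower).

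Within a single genotype the tests had 5 libraries per age. From E14 to E18 in WT libraries 9 of 10 genes passed (background 65.9%), 3 higher (background 31.8%) and 6 lower (34.1%), and in Het libraries 10 of 10 passed (background 64.5%), 4 higher (32%) and 6 lower (32.5%); *Dpf1* made the difference. From E18 to P7 in WT libraries 9 passed (67.3%), 1 higher (33.9%) and 8 lower (33.4%), and in Het libraries also 9 (67.8%), 1 higher (32.7%) and 8 lower (35%). The step from P7 to P35 gave 9 in WT libraries (67%), 1 higher (32.6%) and 8 lower (34.3%), and 7 in Het libraries (67.8%), 1 higher (34.5%) and 6 lower (33.3%). Between P35 and P70 the edgeR test gave 0 of 10 in WT libraries (background 1.06%, 0.533% higher and 0.527% lower) and 0 of 10 in Het libraries (2.98%, 1.51% higher and 1.47% lower), with 2 at an unadjusted p under 0.05 in each. The share of all tested genes at that unadjusted p was 11.3% in WT and 16.2% in Het libraries. Over the whole span *Smarca2* was higher and the other 9 were lower in WT libraries (10 of 10, background 85.6%, 42.8% higher and 42.9% lower) and in Het libraries (10 of 10, background 85.3%, 42.3% higher and 43% lower).

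Summed over the 10 genes, the level went from a median of 258 RPKM at E14 to 120 at P35 and 127 at P70.

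Cell-type markers moved with age as well. Markers said to rise or fall passed the test from E14 to P70, where 44.7% of all tested genes were higher and 45.1% lower. The 12 progenitor and cell cycle markers summed to a median of 543 RPKM at E14, 187 at E18 and 81.4 at P7, then 56.6 in P35 and 51.5 in P70 libraries, with *Vim* the most abundant at E14 and *Sox2* at P70; 12 of 12 fell from E14 to P70 (median log2 change -5.48), *Neurog2* (-7.70) and *Top2a* (-7.0) the most. The 12 neuron markers summed to a median of 1068 RPKM at E14, 1424 at E18 and 1762 at P7, then 1687 in P35 and 1691 in P70 libraries; 7 of 12 rose and 4 fell, with *Camk2a* (log2 change 5.89) and *Snap25* (4.97) the most raised and *Dcx* (-5.04) and *Tubb3* (-2.08) the most lowered. Astrocyte markers rose in 8 of 8 cases, *S100b* by 8.29 and *Gfap* by 7.61 on the log2 scale, and their sum went from a median of 65.2 RPKM at E14 (*Aldoc* the most abundant) to 568 at P35 and 582 at P70. Oligodendrocyte lineage markers rose in 8 of 9 cases, *Mag* by 8.61 on the log2 scale, and their sum went from a median of 45.3 RPKM at E14 (*Cnp* the most abundant) to 927 at P35 and 673 at P70, where every library lay below every P35 library (at most 763 against at least 797). No marker of these 4 lists was at 0 in every library of an age. Their part in the changes of the 10 genes was not tested.

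Within E14 the same markers differed between libraries. E14 WT replicate 5, which held *Xist* counts, had the highest progenitor sum of its age (662 RPKM) and the lowest neuron sum (886), and also the highest *Actl6a* and the lowest *Actl6b*. E14 WT replicate 2 had the lowest progenitor sum (438 RPKM), the highest neuron sum (1279), the lowest *Actl6a* and the highest *Actl6b*. Within P7, WT replicate 2 had a progenitor sum of 132.83 RPKM where the other P7 libraries reached at most 92.1, a neuron sum of 1198 where the others had at least 1703, and an oligodendrocyte sum of 339 where the others reached at most 160.

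Other genes of the complex and its circuit were read from lists which, like the 10 genes, were chosen with earlier results of these data known. Of 21 other BAF and PBAF subunit genes, 2 rose and 19 fell from E14 to P70 (median log2 change -1.46) against a background of 44.7% higher and 45.1% lower among all tested genes: *Bcl7b* (0.82 ± 0.045) and *Bicral* (0.31 ± 0.048) rose, and *Smarce1* (-2.57 ± 0.040) and *Bcl7c* (-1.98 ± 0.041) fell most. Of 18 ATPase genes of other remodellers, 2 rose and 15 fell (median -0.96; the same background): *Chd5* (1.53 ± 0.10) and *Smarca1* (0.15 ± 0.056) rose, and *Hells* (-4.10 ± 0.16) and *Chd7* (-2.93 ± 0.21) fell most. Of 13 genes of the REST pathway, 1 rose and 12 fell (median -1.81; the same background): *Ctdspl*, which encodes a small phosphatase of the pathway, rose (0.66 ± 0.057), while *Rcor2* (-4.15 ± 0.18), a REST corepressor, and *Ptbp1* (-2.51 ± 0.067), a splicing repressor targeted by miR-124, fell most. Lower levels at P70 than at E14 were thus found for 9 of the 10 genes and for most other subunit genes, and nothing particular to the 10 was tested.

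**Figure D4:**
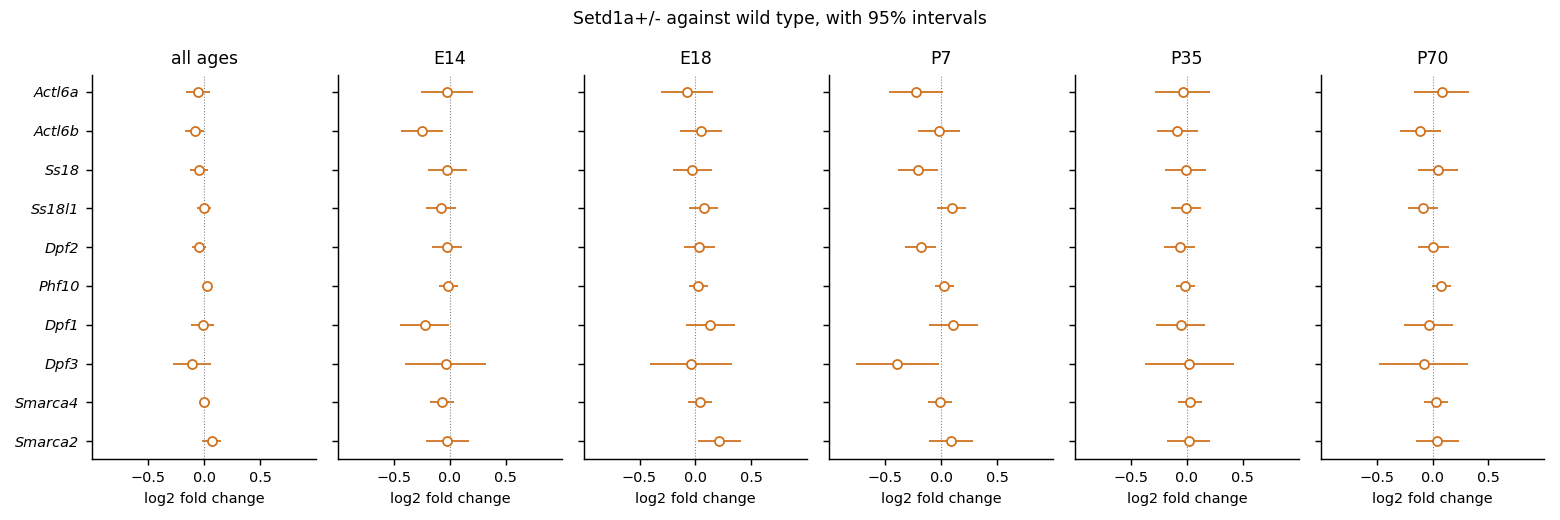
Log2 fold change of *Setd1a*+/- over wild type (horizontal axis) for each of the 10 genes, over all ages and at each age, with 95% intervals from 5 libraries per genotype and age. No gene passed the test at an adjusted p under 0.05, and most intervals hold 0.

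Genotype was then compared within ages and over them. With age as a covariate, 0 of 10 genes passed in the edgeR test (background 4.43%, 723 genes, 0.68% higher and 3.75% lower), 0 had an unadjusted p under 0.05 (14.5% of all tested genes), and limma-voom and DESeq2 also gave 0 of 10. The log2 changes ran from -0.11 for *Dpf3* to 0.07 for *Smarca2*, and the smallest adjusted p was 0.383, for *Actl6b* (log2 change -0.08 ± 0.043). The change of *Dpf3* was -0.39 at P7, with WT replicate 2 included, and between -0.08 and 0.02 at each other age. Its P7 value without that library is given below. In percent, the 95% interval of *Actl6b* ran from -10.9 to 0.144 and that of *Smarca4* from -3.05 to 3.52, so a fall of *Smarca4* by more than 3.05% lies outside its interval. In all 50 combinations of gene and age the ranges of WT and Het libraries overlapped (over all tested genes and the 5 ages they did not overlap in 1.85% of combinations), and so did those of the 4 ratios at all 5 ages.

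At single ages 0 of 10 genes passed at E14 (background 0.129%), E18 (0.11%), P7 (0.735%), P35 (0%) or P70 (0.233%), with edgeR, limma-voom and DESeq2 alike. By edgeR, the number with an unadjusted p under 0.05 was 1 in E14, 1 in E18, 3 in P7, 0 in P35 and 0 in P70 libraries, where the share of all tested genes was 11.6%, 11.4%, 8.86%, 3.37% and 6.55%. For the age by genotype interaction 0 of 10 passed (background 0%), with 0 at an unadjusted p under 0.05 (6.72% of all tested genes) and 0 by limma-voom and DESeq2.

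*Actl6b* at E14 was the gene nearest to a genotype difference. Its level in the 5 WT libraries was 35.6, 40.2, 27.2, 28.1 and 19.3 RPKM, and in the 5 Het libraries it was 26, 22.9, 30.8, 23.9 and 22.9. The lowest value of all was that of WT replicate 5, and 3 WT libraries lay below the highest Het library. The log2 change was -0.25 ± 0.095 (p 0.0117, adjusted p 0.225). Without WT replicate 5 it was -0.37 ± 0.077 and passed the test (adjusted p 0.00854), with 740 genes passing (background 4.53%) in place of 21. Without all 3 libraries that stood apart it was -0.38 ± 0.074 (adjusted p 0.00460), and *Dpf1* passed too, at -0.33 ± 0.089 (adjusted p 0.0252; background 7.13%, 1165 genes). Whether the markers that move with *Actl6b* among E14 libraries take part in this was not tested.

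*Dpf1* at E14 was 37.1, 43.4, 37.1, 33.3 and 25.1 RPKM in WT and 30.3, 30.0, 34.9, 30.5 and 25.2 in Het libraries. The lowest value of each genotype was that of replicate 5, and the ranges overlapped. With all libraries its log2 change was -0.22 ± 0.11 (adjusted p 0.431).

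The log2 changes of the 3 genes with an unadjusted p under 0.05 at P7 moved toward 0 without 1 library. *Dpf3* was 1.67, 3.78, 1.49, 1.4 and 1.60 RPKM in WT and 1.5, 1.25, 1.41, 1.83 and 1.58 in Het libraries, and the WT value of 3.78 is replicate 2. Its log2 change was -0.39 ± 0.19 (adjusted p 0.532), and without that library it was -0.02. *Ss18* went from -0.21 ± 0.092 (adjusted p 0.457) to -0.02 and *Dpf2* from -0.18 ± 0.072 (adjusted p 0.338) to -0.10 without the same library, and the number of all genes passing at P7 went from 120 to 7.

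*Smarca2* at E18 was 18.5, 20.2, 22.1, 15.9 and 21.1 RPKM in WT and 22.3, 26.8, 22.4, 17.7 and 23.9 in Het libraries. Of the Het libraries 4 lay above every WT library, and replicate 4 was the lowest of each genotype. The log2 change was 0.21 ± 0.099 (p 0.0378, adjusted p 0.404); with the RNA integrity number, lower in Het libraries at this age, as a covariate it was 0.14 (adjusted p 0.935). Compared by replicate number, the Het value was the higher one for all 5 numbers. These numbers label different mice and were not treated as pairs, and the residual r of libraries sharing a number at E18 ran from -0.18 to 0.29. Endothelial and pericyte sums (means 101.9 RPKM in WT and 58.4 in Het libraries) and choroid plexus sums (72.2 and 2.00) also differed in mean between genotypes at E18, and their part in this value was not tested.

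The tests compare whole-tissue RNA, so protein levels and the composition of assembled complexes were not measured. At E14 and E18 the genotype comparisons include the libraries with *Xist* counts, as labelled.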

How the data were processed

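Fragment counts per gene were deposited by the authors (featureCounts v1.4.6-p2, Ensembl 102 of GRCm38, unstranded, a fragment over several genes counted for each, duplicates kept). The 10 genes and all lists were chosen with earlier results of these data known. Protein-coding genes passing filterByExpr (10 counts, groups of 5) were scaled by TMM and fitted in edgeR 4.0.16: 10 groups for age steps, genotype within ages and interaction, and genotype with age as a covariate. Benjamini-Hochberg adjusted p under 0.05 passed. RPKM used merged exon length; log2 CPM had a prior count of 2. Named were the 10 genes, *Setd1a*, the 3 genes most like each and, as no other listed gene passed for genotype, up to 2 per list with the largest E14 to P70 fold each way. Alternatives were limma 3.58.1, DESeq2 1.42.0, other scalings, filters, covariates and libraries. Code was tested on simulated data. No replicate was a copy (100 pairs, chi-square per gene 5.17 to 122). Libraries sharing a replicate number were not treated as pairs (25, residual r -0.204 to 0.46, median 0.064, 9 over 0.1), except in the block alternative.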

Additional observations from a re-analysis of the deposited data

Results flagged for a closer look

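In each group of 5 libraries, a value is given here when its gap to the nearest other library took up most of the group's range (Dixon's 95% criterion). Chance marks about 1 in 20 groups; here 16 of 150 groups held such a value, and 9 of the 16 were P7 WT replicate 2.

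P7 WT replicate 2 was the highest of its group for *Actl6a* (7.93 RPKM), *Dpf3* (3.78 RPKM) and *Ss18* (4.71 RPKM). It was the lowest for *Phf10* (13.6 RPKM), *Dpf1* (14.5 RPKM) and *Ss18l1* (14.7 RPKM). It was also the lowest in the log2 ratios of *Actl6b* to *Actl6a* (1.65), of *Ss18l1* to *Ss18* (1.64) and of *Dpf1* plus *Dpf3* to *Dpf2* plus *Phf10* (-0.39).

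The other 7 values lay in different groups. *Dpf2* was far above its group in E14 WT replicate 1 (19.9 RPKM) and below it in P35 Het replicate 3 (7.85 RPKM). *Phf10* was high in P7 Het replicate 3 (17.4 RPKM). *Dpf3* was high in E18 WT replicate 5 (2.70 RPKM) and low in P35 Het replicate 2 (0.615 RPKM). *Smarca2* was high in P35 WT replicate 2 (20.8 RPKM). The log2 ratio of *Actl6b* to *Actl6a* was high in E18 WT replicate 4 (2.36).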

How the results depend on the processing

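For genotype with age as a covariate, the 10 genes gave 0 passing in every alternative and with each of the 50 libraries left out; the smallest adjusted p was 0.0725 over the alternatives and 0.147 over the libraries. Counts of all genes passing at single ages moved widely, and the cause was not tested where the construction of the alternative (fewer libraries, a stricter threshold) does not show it. Depth limits *Dpf3* most (72 to 651 counts). Library size as the only scaling shifted the median log2 change of all genes from E14 to P70 by -0.127.

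The 1.5-fold test (glmTreat) of the age steps left 1 of the 10 genes higher and 2 lower from E14 to E18 (3551 genes in all), 0 and 4 from E18 to P7 (3971), 0 and 1 from P7 to P35 (4522), and 0 higher from P35 to P70 (2). Each number of genes in all counts both directions among the 16330 tested genes. An adjusted p under 0.01 left 0 of the 10 higher from P35 to P70 (691 genes in all), and for genotype 406 genes, with 2 at E14, 3 at E18, 19 in P7 and 6 in P70 libraries.

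DESeq2 gave 21 genes for the interaction, and for genotype 114 at E14, 111 at E18, 11 at P35 and 77 at P70. Size factors of DESeq2 within edgeR gave 2 at P35. limma-voom gave 10 at E18 and 16 at P7. With RNA integrity as a covariate 1 gene passed at E18. All annotated genes gave 11 at E14 and 2 at P35. The filter of 10 CPM in 5 libraries gave 9 at E14, 7 at E18, 59 in P7 and 1 in P35 libraries, and library size only gave 3 at E14. The genotype log2 change of *Ss18l1*, -0.0003 in the reported fit, was 0.0055 with DESeq2, 0.0052 with its size factors, 0.0037 with limma-voom, 0.00093 with all annotated genes and 0.0035 with the 10 CPM filter. With library size only, that of *Smarca4* was -0.0047 and the P7 to P35 change of *Dpf2* was -0.0079.

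In wild-type libraries alone 0 of the 10 genes were higher from P35 to P70 (173 genes in all), the E18 to P7 change of *Dpf3* was 0.016 and the P35 to P70 change of *Ss18l1* was 0.0015. In Het libraries alone 0 were higher from P35 to P70 (487 genes in all) and the change of *Actl6a* was 0.039. Longest-transcript lengths gave mean log2 ratios at E14 and P70 of -0.11 and 2.14 for *Actl6b* to *Actl6a*, 0.49 and 0.83 for *Ss18l1* to *Ss18*, and -1.85 and 1.00 for *Smarca2* to *Smarca4*.

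The replicate block, which gives no value for age steps because it lies within an age, gave 3 genes for the interaction, 37 at E18, 3 at P35 and 20 at P7, and a genotype change of 0.0029 for *Ss18l1*.

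Without the 2 libraries with *Xist* counts 12 genes passed for the interaction, 793 at E14 (1 of the 10 genes, *Actl6b*), 77 at E18 and 3 at P35, and the genotype change of *Smarca4* was -0.00068. Without all 3 libraries, an alternative chosen after seeing the data, 65 passed for the interaction, 1165 at E14 (2 of the 10, *Actl6b* and *Dpf1*), about 1.9e+02 at E18, 9 genes in P7, 5 in P35 and 60 in P70 libraries. In the same fit 2 of the 10 were higher from P7 to P35 (*Smarca2* and *Dpf2*), where 12593 of 16330 tested genes passed in either direction. The genotype change there was 0.018 for *Actl6a* and 0.0074 for *Ss18*.

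With 1 library left out, the interaction gave 0 to 5 genes (5 without E14 WT replicate 5). Genotype gave 1 to 740 at E14 (lowest without WT replicate 1, highest without WT replicate 5), with 0 to 1 of the 10 genes. It gave 7 to 150 at E18 (lowest without E18 Het replicate 2, highest without E14 Het replicate 2), 7 to 211 at P7 (without WT replicate 2 and WT replicate 3), 0 to 5 at P35 and 8 to 104 at P70 (without Het replicate 4 and Het replicate 5). Members higher numbered 1 to 2 from P7 to P35 and 1 to 2 from P35 to P70. With no library left out, 38% and 5% of all tested genes were higher in these steps. Genotype changes ran from -0.036 to 0.0079 for *Dpf1*, from -0.0053 to 0.011 for *Smarca4* and from -0.012 to 0.019 for *Ss18l1*. None of these 3 genes passed in any of them.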

Other observations

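Other marker lists gave these values, beside a background of 44.7% of all tested genes higher and 45.1% lower from E14 to P70. From E14 to P70, 7 of 7 microglia markers rose (median log2 change 2.53), *Tmem119* by 3.22 and *P2ry12* by 3.18, and their sum had a median of 19.3 RPKM at E14 and 124 at P70. Among 6 endothelial and pericyte markers, 1 rose (*Flt1*, 1.95) and 3 fell, *Kdr* (-1.45) and *Cdh5* (-1.09) the most, while *Cldn5* did not pass (0.12; adjusted p 0.580). All 6 erythroid markers fell, *Hbb-y* (-10.86) and *Hbb-bt* (-3.30) the most. All 8 cortex markers fell (median log2 change -1.87), *Neurod2* by 2.32. All 6 striatum markers rose, *Ppp1r1b* (3.33) the most, and their sum ran from 94.0 to 378 RPKM over the P70 libraries. Of 6 choroid plexus markers, 1 rose (*Kl*, 2.78) and 5 fell, *Ttr* (-6.09) and *Otx2* (-5.46) the most. Of 8 hindbrain and Hox markers, 0 had enough counts to be tested. None of these 14 lists held a gene that passed for genotype in the edgeR test with age as a covariate.

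Host transcripts of the circuit's microRNAs were chosen after their values were seen. *Mir9-3hg* had a median of 117 CPM at E14, 42.1 at E18 and 30.4 at P70. *Mir124a-1hg* had a median of 344 at E14 and 221 at P70, and *Mir124-2hg* 122 and 61.3. A host transcript is not the mature microRNA.

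Among the 10 genes, *Actl6a* and *Ss18* had a Pearson r of 0.973 over the 50 libraries and 0.684 with the mean of each age removed, and *Actl6b* and *Ss18l1* had 0.856 and 0.813. *Actl6a* and *Actl6b* had 0.369 over all libraries and -0.39 with the mean of each age removed. The points share their ages, and the r are descriptions.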
